A study of Mus musculus with 10 samples.

Results

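Lung RNA of 3 libraries labelled SF-3-030+HDM was compared with that of 4 libraries labelled PBS, across all genes, with blank cells of the deposited table read as a count of 0. These 7 libraries are part of a series of 10 whole-lung libraries, and the other 3 come from mice given house dust mite (HDM) extract with the solvent DMSO. All 10 are labelled as female BALB/c mice of 12 weeks, and no allele is named for any of them. HDM was given intranasally on 5 days of each of 3 weeks, per the labels, with SF-3-030 at 10 mg/kg by the same route 30 min before each dose, while the PBS mice received the salt buffer. The contrast therefore holds allergen, compound and any solvent of the compound together, since the series has no group with the compound alone and DMSO is named for the HDM group and not for the PBS group. The labels do not say that each library is a separate animal, so p-values measure the spread between these libraries.

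House dust mite extract is a common allergen whose proteases and other components damage the airway epithelium. The epithelium answers with alarmins such as IL-33, which act on innate lymphoid cells and T helper 2 cells, and these release IL-4, IL-5 and IL-13. IL-5 sustains eosinophils, while IL-4 and IL-13 act through the receptor chain IL-4Rα and the transcription factor STAT6 on macrophages, B cells and epithelium. SF-3-030 is described as a function-selective inhibitor of the ERK kinases, which pass growth factor signals to the nucleus, where AP-1 factors of the Fos and Jun families are among their outputs.

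The labels were checked first. Libraries are named below by group and replicate number, as in PBS 1. H2-Ea-ps, an MHC class II chain gene that carries an inactivating deletion in C57BL/6 mice and is intact in BALB/c mice, had 0.663, 0.34, 0.36 and 0.86 CPM (counts per 1000000 counted) in PBS replicates 1 to 4, 0.107, 0.953 and 0.462 CPM in HDM replicates 1 to 3 and 392, 331 and 432 CPM in SF-3-030+HDM replicates 1 to 3. The mast cell tryptase gene Tpsab1, which is defective in C57BL/6 mice, had 0.153, 0.000353, 0.00846 and 0.0407 CPM in PBS, 0.154, 0.0685 and 0.281 CPM in HDM and 15.3, 11.9 and 15.4 CPM in SF-3-030+HDM. The interferon-inducible GTPase gene Gbp2b had at most 0.457 CPM in PBS and 1.4 CPM in HDM, and at least 46.4 CPM in SF-3-030+HDM. Trim12a, a member of a TRIM family of antiviral factors, ran the other way, with 24.8, 25.4, 18.7 and 19.1 CPM in PBS, 30.6, 21.2 and 22.8 CPM in HDM and 0.363, 0.227 and 0.199 CPM in SF-3-030+HDM. At these 4 genes the 3 SF-3-030+HDM libraries stood apart from the other 7, although the labels give 1 strain, so a difference in genetic background and the treatment cannot be told apart in any result below. By H2-Ea-ps, the 7 PBS and HDM libraries are those that went against the BALB/c label, and they were also the low ones at Tpsab1. The Y-linked RNA helicase gene Ddx3y had 0, 30.2, 0.575 and 0 CPM in PBS and 0.0385, 31.5 and 20.4 CPM in HDM and no count in SF-3-030+HDM, so PBS replicate 2 and HDM replicates 2 and 3 went against the female label. Olfactory and vomeronasal receptor genes, which the lung uses little, summed to 453 CPM in PBS replicate 1 and 298 CPM in PBS replicate 4, against 48.03 and 58.2 CPM in the other PBS libraries and 15.8 to 31.8 CPM in SF-3-030+HDM. HDM replicates 1 to 3 had 87.4, 110 and 222 CPM. PBS 1, PBS 4 and HDM 3 are the high-background libraries named below, and a fit without them keeps only PBS 2 and PBS 3 of the PBS group. Counts summed to 38667118 to 59083942 per library, and Pearson correlations of log values were 0.944 to 0.987 within PBS, 0.989 to 0.993 within SF-3-030+HDM and 0.894 to 0.964 between them. Lung markers were present in all 7 libraries, among them Sftpc of alveolar type 2 cells at 16563 to 38236 CPM and Ager of alveolar type 1 cells at 2001 to 5415 CPM.

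**Figure D1:**
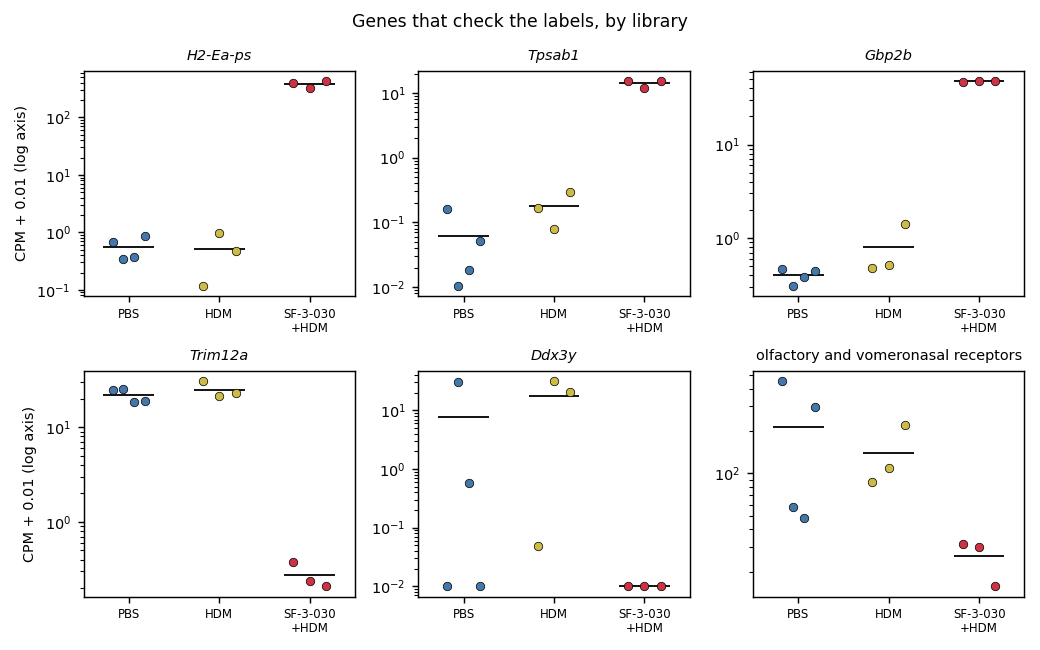
CPM (log axis, 0.01 added so that a count of 0 can be drawn) of 5 genes and of all olfactory and vomeronasal receptors summed, with 1 point per library and a line at the group mean. SF-3-030+HDM stands apart from both other groups for H2-Ea-ps, Tpsab1, Gbp2b and Trim12a, Ddx3y is raised in 1 PBS and 2 HDM libraries, and PBS replicates 1 and 4 have the highest receptor sums.

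In SF-3-030+HDM lungs, larger shares of the genes listed for type 2 inflammation, for macrophages driven by IL-4 and IL-13, for B cells, T cells and mast cells and for cell division were called higher against PBS than of all genes, and larger shares of the club cell, alveolar type 1 and detoxification genes were called lower. IgE heavy chain RNA was 359-fold higher, the chemokine gene Ccl8 120.3-fold higher and the macrophage elastase gene Mmp12 87.7-fold higher, while the secretoglobin gene Scgb3a2 was 19.8-fold lower. By edgeR's quasi-likelihood test with Benjamini-Hochberg adjustment at 0.05, 3101 of 26235 genes tested were higher (11.8%) and 4741 lower (18.1%), or 29.9% in all, and the median log2 fold change over all genes was -0.11. At a mean of at least 1 CPM in the higher group, 2940 genes were higher and 2316 lower of 17846 tested, and under 1 CPM 161 were higher and 2425 lower of 8389. Shares over all genes tested, given beside the lists below, include these genes under 1 CPM and were not matched to the level of list members. Of the genes called lower, 1300 had no count in any SF-3-030+HDM library. Genes with any read numbered 28929 to 30689 per SF-3-030+HDM library, 33371 to 39506 per PBS library and 36334 to 39609 per HDM library. The part of this difference between libraries in the lower calls was not tested. Libraries of the groups did not overlap, in the higher direction, for 17.0% of the genes tested and, in the lower direction, for 21.8%. The higher count fell to 1894 without SF-3-030+HDM replicate 1 and 1880 without replicate 2, and the lower count was 2124, 2013, 2513 and 2857 without SF-3-030+HDM replicates 1, 2 and 3 and PBS replicate 4, in that order. Upper-quartile scaling moved the median to -0.31 and the split to 2256 higher and 6108 lower.

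In the comparison of HDM with PBS, which uses the same PBS libraries, 2.61% of genes were called, 2.32% higher and 0.294% lower. SF-3-030+HDM against HDM called 9.49%, 3.43% higher and 6.06% lower. Because the comparisons share libraries, their values are set side by side below and no overlap between them is given. The bulk RNA does not separate a change in the number of cells of a type from a change in RNA per cell, and the 2 cannot be told apart here.

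The 12 largest rises by the naming rule were led by epithelial, mast cell and antibody genes. Sprr2a3 (ENSMUSG00000074445, chromosome 3, 92285417 to 92291405), a small proline-rich protein of the cornified envelope, had 0.172, 0.32, 0.207 and 0.246 CPM in PBS and 166, 82.6 and 137 CPM in SF-3-030+HDM, a log2 fold change of 9.08 ± 0.90 (± standard error; adjusted p = 5.08e-05). It is 1 of a cluster of near-identical genes among which the counting could split reads, and Sprr2a1 and Sprr2a2 beside it rose by 6.53 ± 0.98 and 6.56 ± 0.99. Mcpt1 (ENSMUSG00000022227, chromosome 14, 56017971 to 56020384) and Mcpt2 (ENSMUSG00000022226, chromosome 14, 56042041 to 56044642), the chymases of mucosal mast cells, rose from 0.103, 0.0705, 0.0677 and 0.2 CPM to 48.5, 37.3 and 48.4 CPM (8.69 ± 0.74, adjusted p = 1.75e-05) and from 0.103, 0.102, 0.0339 and 0.16 CPM to 26.5, 21.4 and 29.5 CPM (8.03 ± 0.61, adjusted p = 8.74e-06). No PBS library came near any SF-3-030+HDM library at these genes. Col6a5 (ENSMUSG00000091345, chromosome 9, 105856078 to 105960643), a collagen VI chain, had 2.02, 1.2, 1.27 and 1.71 CPM in PBS and 227, 211 and 220.4 CPM in SF-3-030+HDM (7.20 ± 0.60, adjusted p = 1.52e-05), with the 3 treated libraries within a narrow range. Rnase2a (ENSMUSG00000047222, chromosome 14, 51255262 to 51256112), a ribonuclease of the eosinophil-associated family, rose from 0.258, 2.1, 0.998 and 2.92 CPM to 171, 162 and 247 CPM (6.94 ± 0.92, adjusted p = 0.000359). The other leading rises were Ighe, Ighg1, Itln1, Tff1 and Ifi44l, described with their groups below, and Tpsab1 (8.41 ± 0.66, adjusted p = 1.1e-05) and Gbp2b (6.94 ± 0.35, adjusted p = 6.4e-07) of the label check.

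The 12 largest falls by the same rule were mostly genes of neural development and chemosensory receptors near 0 in lung. Lhx9, Tfap2b, Neurod2, Otp, Otx2 and Sall4, transcription factor genes of embryonic and neural development, together with the receptor genes Vmn1r173, Vmn1r80 and Olfr15 and Fstl5, were highest in PBS replicate 1 and next in PBS replicate 4. None of these 10 was called by limma-voom (adjusted p = 0.0516 to 0.189), all 10 were by DESeq2, and without the 3 libraries with the highest receptor sums 9 were called by edgeR and Neurod2 was not (adjusted p = 0.0661). Lhx9, for example, had 4.13, 0.282, 0.302 and 2.02 CPM in PBS and no count in SF-3-030+HDM, and was at least 82.5-fold lower, with 3 counts over the SF-3-030+HDM group as the limit. Of 307 olfactory and vomeronasal receptor genes tested, 222 were called lower and 2 higher, and without the 3 libraries with the highest receptor sums the lower calls over all genes were 2636. Cldn34c1 (ENSMUSG00000079450, chromosome X, 123103495 to 123188795), a claudin-family gene, and Skint3 (ENSMUSG00000070868, chromosome 4, 112232245 to 112300468), of a family tied to skin T cells, had 2.73, 2.15, 2.11 and 3.24 and 3.59, 1.66, 1.42 and 2.33 CPM in PBS, and PBS replicates 1 and 4 were again the highest. In SF-3-030+HDM both were at or near 0, and in HDM they had 2.48, 1.64 and 1.37 and 1.41, 0.757 and 0.686 CPM.

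Among genes of at least 10 CPM in PBS, a limit chosen after the values were seen, the 12 largest falls were of another kind. Spink5 (ENSMUSG00000055561, chromosome 18, 43963235 to 44022501), a serine protease inhibitor of stratified epithelium, went from 6.64, 12.3, 10.8 and 13.4 CPM to 0.0698, 0 and 0.0339 CPM (-8.18 ± 0.58, adjusted p = 5.1e-06), with 6.97, 7.33 and 4.94 CPM in HDM. Ankrd63 (ENSMUSG00000078137, chromosome 2, 118699103 to 118703963) went from 21.7, 20.9, 26.4 and 26.97 CPM to 0.14, 0.0364 and 0.203 CPM (-7.50 ± 0.48, adjusted p = 2.91e-06). Marco (ENSMUSG00000026390, chromosome 1, 120474538 to 120505024), a scavenger receptor of alveolar macrophages, went from 7.14, 10.9, 20.9 and 15.7 CPM to 0.209, 0.0896 and 0.0339 CPM (-6.94 ± 0.66, adjusted p = 3.93e-05), while HDM libraries had 6.11, 12.5 and 5.91 CPM. For these 3 genes HDM against PBS gave -0.71 ± 0.35, -0.67 ± 0.32 and -0.69 ± 0.45, with adjusted p = 0.528, 0.488 and 0.758, and the direct test of SF-3-030+HDM against HDM gave -7.47 ± 0.58, -6.83 ± 0.48 and -6.25 ± 0.66, with adjusted p = 2.38e-05, 1.01e-05 and 0.000196. Gdpd2 (ENSMUSG00000019359, chromosome X, 100729873 to 100738895), a glycerophosphodiester phosphodiesterase, and Pon1 (ENSMUSG00000002588, chromosome 6, 5168090 to 5193946), a lipid-linked esterase, were lower in HDM as well, at -2.59 ± 0.41 and -2.32 ± 0.33 (adjusted p = 0.00663 and 0.00368), and in SF-3-030+HDM at -6.42 ± 0.53 and -4.80 ± 0.38 (adjusted p = 1.47e-05 and 1.09e-05). Col4a6, a basement membrane collagen chain, and Camk2b, a calmodulin-dependent kinase, were lower at -4.82 ± 0.32 and -4.11 ± 0.48 (adjusted p = 3.78e-06 and 0.000147).

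**Figure D2:**
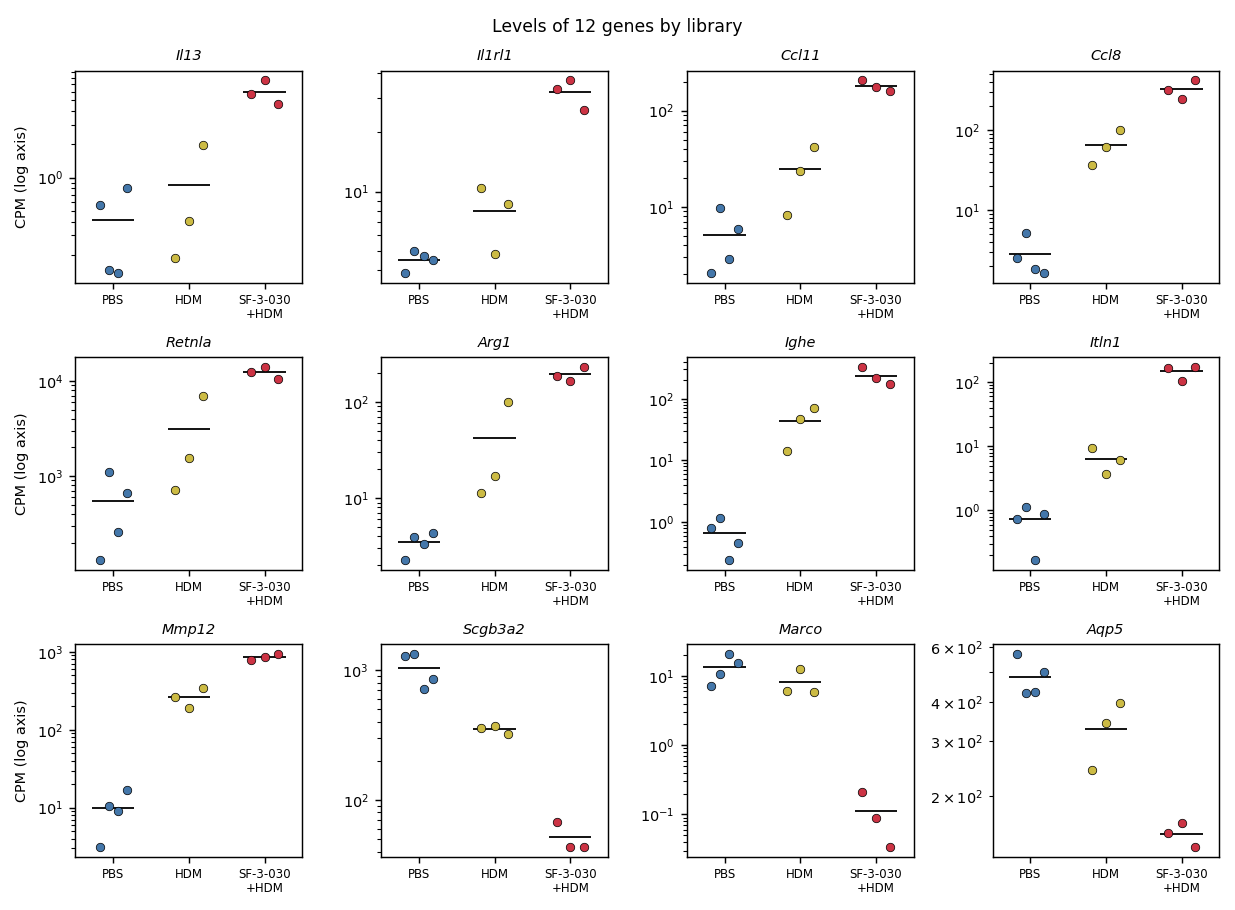
CPM (log axis) of 12 genes, with 1 point per library and a line at the group mean. The first 9 panels have every SF-3-030+HDM library above every PBS library, and Scgb3a2, Marco and Aqp5 have every SF-3-030+HDM library below every PBS library.

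Of 19 type 2 cytokine and receptor genes tested, 12 were higher and 0 lower, with a median log2 fold change of 1.22, against 11.8% called higher and a median of -0.11 over all genes tested. Il13 (ENSMUSG00000020383, chromosome 11, 53631324 to 53634702), the cytokine that drives mucus and airway reactivity, had 0.567, 0.145, 0.137 and 0.803 CPM in PBS and 5.7, 7.6 and 4.6 CPM in SF-3-030+HDM (3.92 ± 0.74, adjusted p = 0.00343). Il5, which sustains eosinophils, had 0.0783, 0.159, 0.127 and 0.229 CPM and 0.819, 1.08 and 0.762 CPM (2.56 ± 0.67, adjusted p = 0.016), and Il4, which directs switching to IgE, 0.403, 0.776, 0.494 and 0.709 CPM and 1.95, 1.58 and 1.66 CPM (1.54 ± 0.36, adjusted p = 0.00988). All 3 cytokine genes were low in both groups, and SF-3-030+HDM libraries lay above PBS libraries at all 3. Several receptor genes were called higher as well. Il1rl1 (ENSMUSG00000026069, chromosome 1, 40429570 to 40465415), the IL-33 receptor, rose from 3.86, 4.98, 4.72 and 4.49 CPM to 33.4, 36.8 and 25.98 CPM (2.84 ± 0.23, adjusted p = 1.41e-05), and the direct test against HDM gave 1.99 ± 0.25 (adjusted p = 0.000657). Il9r, the IL-9 receptor, rose by 3.20 ± 0.27 and Il5ra, the IL-5 receptor chain, by 2.99 ± 0.35 (adjusted p = 1.7e-05 and 0.000152). Il13ra2, a decoy receptor for IL-13, went from 0.232, 0.0881, 0 and 0.0488 CPM to 5.18, 6.17 and 2.97 CPM (5.84 ± 0.87, adjusted p = 0.000784), and the alarmin gene Il33, from 42.4, 85.4, 100.1 and 89.5 CPM to 133, 195 and 219.8 CPM (1.22 ± 0.33, adjusted p = 0.0178). Fits on 9 libraries did not call Il5 without SF-3-030+HDM 2 (adjusted p = 0.0616) and Il33 without SF-3-030+HDM 2 or SF-3-030+HDM 3 (adjusted p = 0.0571 to 0.0779).

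Chemokines, which draw leukocytes into tissue, were called higher for 18 and lower for 3 of 33 tested (median 1.52). All genes tested had 11.8% higher and 18.1% lower. Ccl8 (ENSMUSG00000009185, chromosome 11, 82115185 to 82116799), a ligand of CCR8 on T helper 2 cells in mice, had 2.48, 5.18, 1.83 and 1.62 CPM in PBS and 320.1, 241 and 419 CPM in SF-3-030+HDM (6.91 ± 0.52, adjusted p = 7.97e-06). HDM libraries lay between, at 36.2, 60.6 and 99.9 CPM, and the test against HDM gave 2.31 ± 0.48 (adjusted p = 0.0149). The eotaxin genes, whose products attract eosinophils through CCR3, were higher too, Ccl11 from 2.04, 9.66, 2.88 and 5.86 CPM to 206, 174 and 160.2 CPM (5.13 ± 0.61, adjusted p = 0.000178) and Ccl24 from 0.435, 1.38, 0.846 and 0.681 CPM to 29.1, 37.3 and 28.8 CPM (5.23 ± 1.07, adjusted p = 0.0054). Ccl9, a monocyte attractant of rodents, rose by 3.45 ± 0.27 (adjusted p = 9.47e-06). Cxcl13, the attractant of B cells to follicles, had 3.36, 4.54, 2.5 and 1.28 CPM in PBS and 52.1, 54.2 and 58.9 CPM in SF-3-030+HDM (4.27 ± 0.40, adjusted p = 3.5e-05). The chemokine members called lower were Ccl21a, Cxcl14 and Cx3cl1.

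Genes that IL-4 and IL-13 switch on in macrophages were higher for 17 of 22 and lower for 0, with a median of 2.51. In HDM against PBS the same list had 9 higher, against 2.32% of all genes, and a median of 2.01. SF-3-030+HDM against HDM called 0 higher and 0 lower, with a median of 0.46. The list summed to 1896 to 3492 CPM in PBS, 6511 to 13689 CPM in HDM and 19204.5 to 19481 CPM in SF-3-030+HDM. Arg1 (ENSMUSG00000019987, chromosome 10, 24915221 to 24927484), the arginase of these macrophages, had 2.27, 3.96, 3.32 and 4.33 CPM in PBS and 188, 165 and 231 CPM in SF-3-030+HDM (5.83 ± 0.67, adjusted p = 0.000142). Retnla (ENSMUSG00000061100, chromosome 16, 48842551 to 48844461), a secreted resistin-like protein, had 131, 1111, 256 and 672 CPM and 12469, 13987 and 10544 CPM (4.49 ± 0.82, adjusted p = 0.0028). PBS libraries spread widely at Retnla and still lay below the 3 SF-3-030+HDM libraries. The phagocytic receptor genes Trem2, Msr1 and Clec7a rose by 3.77 ± 0.29, 2.95 ± 0.20 and 2.71 ± 0.23 (adjusted p = 8.74e-06, 3.69e-06 and 1.52e-05). Pdcd1lg2 (ENSMUSG00000016498, chromosome 19, 29410919 to 29471161), which encodes the checkpoint ligand PD-L2, had 0.677, 0.904, 0.446 and 0.67 CPM in PBS and 11.1, 12.6 and 18.1 CPM in SF-3-030+HDM (4.43 ± 0.49, adjusted p = 0.000106).

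Promoters of Retnla and Pdcd1lg2 are printed as members of this list whose windows hold the letters described next. The windows run from 250 bases before to 50 after the start in RefSeq on build GRCm38.p6, plus strand, at chr16:48842359-48842658 and chr19:29410669-29410968, and the capitals mark TTCNNNNGAA, the form of site that STAT6 prefers, searched as letters that read the same on both strands.
Retnla promoter: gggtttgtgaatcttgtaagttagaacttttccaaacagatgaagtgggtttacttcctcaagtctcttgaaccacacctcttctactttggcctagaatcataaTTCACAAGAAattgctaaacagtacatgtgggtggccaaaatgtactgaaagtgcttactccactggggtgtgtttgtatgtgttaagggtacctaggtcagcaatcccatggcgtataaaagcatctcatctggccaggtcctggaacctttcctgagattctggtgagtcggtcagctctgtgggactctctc
Pdcd1lg2 promoter: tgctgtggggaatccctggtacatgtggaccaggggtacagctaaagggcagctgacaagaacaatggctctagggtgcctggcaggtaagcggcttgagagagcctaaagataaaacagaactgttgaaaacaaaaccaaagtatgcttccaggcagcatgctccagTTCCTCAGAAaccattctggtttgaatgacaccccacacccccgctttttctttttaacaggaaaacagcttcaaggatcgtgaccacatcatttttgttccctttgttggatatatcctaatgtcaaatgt
The match began 145 bases before the start of Retnla and 82 before that of Pdcd1lg2. Of 13 list members matched to RefSeq promoters, 4 held the motif at any annotated start. Over all 32851 promoters the share was 6.95%, counted per start and not per gene, so it is not a like measure. A match describes letters in the window and was not tested for binding.

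Chitinases and resistin-like proteins were higher for 6 of 10 tested and lower for 1, against 11.8% higher and 18.1% lower over all genes. Chil3, a chitinase-like protein of macrophages, had 438, 332, 760.1 and 1218 CPM in PBS and 4022, 2818 and 5072 CPM in SF-3-030+HDM (2.56 ± 0.41, adjusted p = 0.00113), and Chia1, the acidic chitinase that degrades chitin, 138, 138, 147 and 215 CPM and 2138, 2352 and 3329 CPM (4.07 ± 0.59, adjusted p = 0.000668). Chil4 had 4.34, 137, 24.1 and 28.04 CPM and 267, 69.9 and 169 CPM and did not pass (1.78 ± 0.82, adjusted p = 0.119), and it is close in sequence to Chil3, so reads could be split. The member that fell was Retn, resistin, an adipocyte gene in mice (-2.94 ± 0.41, adjusted p = 0.000487), and markers of adipose tissue moved with it, as given below.

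Markers of monocytes, macrophages and dendritic cells were higher for 13 and lower for 3 of 28 tested. All genes tested gave 11.8% higher and 18.1% lower, so the list share called lower was below that of all genes. The summed level of the list ran the other way, at 8284 to 11407 CPM in PBS, 8992 to 12679 CPM in HDM and 4869 to 7709 CPM in SF-3-030+HDM, with every SF-3-030+HDM library below every PBS library. C1qa, a complement chain made by tissue macrophages, had 68.8, 32.9, 48.2 and 34.1 CPM in PBS and 169, 176 and 353 CPM in SF-3-030+HDM (2.43 ± 0.34, adjusted p = 0.000533). Spp1, osteopontin, rose by 2.02 ± 0.19 (adjusted p = 3.14e-05). Marco, given above, fell in the same libraries. Genes of antigen presentation by MHC class II were higher for 8 of 13 and lower for 0. In HDM against PBS 11 were higher, against 2.32% of all genes. Ctss, the protease that trims the invariant chain, had 181, 131, 184 and 195 CPM and 679, 621 and 962 CPM (2.17 ± 0.22, adjusted p = 5.58e-05), and Ciita, the transactivator of class II genes, 39.6, 34.5, 31.97 and 25.4 CPM and 84.7, 62.5 and 71.7 CPM (1.19 ± 0.17, adjusted p = 0.000591). The class II gene H2-Ea-ps of the label check is not counted in this list. The monocyte, macrophage and dendritic cell members called lower were Marco, Fabp1 and Lyz2.

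Eosinophil genes were higher for 8 and lower for 1 of 13 tested (median 2.40), against 11.8% higher and 18.1% lower over all genes. Epx (ENSMUSG00000052234, chromosome 11, 87864000 to 87875536), eosinophil peroxidase, had 0.156, 0.0331, 0.102 and 0.128 CPM in PBS, 0.161, 0.0735 and 0.0808 CPM in HDM and 2.24, 1.72 and 2.75 CPM in SF-3-030+HDM (4.49 ± 0.50, adjusted p = 0.000118). Its levels stayed low in every library, and the test against HDM gave 4.44 ± 0.56 (adjusted p = 0.000721). Ear1, an eosinophil-associated ribonuclease with close paralogs, was the member that fell, from 23.03, 7.55, 22.9 and 22.6 CPM to 1.36, 0.875 and 1.83 CPM (-3.75 ± 0.58, adjusted p = 0.00101). Siglecf, a sialic acid receptor that eosinophils share with alveolar macrophages, had 9.88, 2.73, 16.9 and 11.2 CPM and 13.9, 12.6 and 15.8 CPM and did not pass (0.50 ± 0.50, adjusted p = 0.475).

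Mast cell and basophil genes were higher for 9 and lower for 1 of 13 tested, with a median of 2.21. For all genes the shares were 11.8% higher and 18.1% lower. HDM against PBS had 2 list members higher, against 2.32% of all genes, and a list median of 0.080. The direct test of SF-3-030+HDM against HDM called 9 higher and 0 lower, against 3.43% and 6.06% of all genes. Cpa3 (ENSMUSG00000001865, chromosome 3, 20215620 to 20242181), the carboxypeptidase of mast cell granules, had 1.12, 0.884, 1.01 and 1.1 CPM in PBS, 0.611, 0.641 and 0.708 CPM in HDM and 5.54, 4.47 and 4.04 CPM in SF-3-030+HDM (2.21 ± 0.22, adjusted p = 5.39e-05 against PBS). Every SF-3-030+HDM library lay above every other library at Cpa3, and the test against HDM gave 2.81 ± 0.25 (adjusted p = 6e-05). Tpsab1, a member of this list, is 1 of the genes that separate these libraries in the label check. The mast cell and basophil member called lower was Gata2.

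Neutrophil genes were split, with 4 higher and 4 lower of 19 tested. Over all genes tested, 11.8% were higher and 18.1% lower, so the neutrophil share called lower was near that of all genes. Retnlg, a resistin-like gene of neutrophils, had 44.3, 21.5, 20.4 and 18.3 CPM in PBS and 117, 76.7 and 98.3 CPM in SF-3-030+HDM (1.97 ± 0.38, adjusted p = 0.00377), and Il1r2, the decoy receptor for IL-1, rose by 1.21 ± 0.28 (adjusted p = 0.00917). The formyl peptide receptor genes Fpr1 and Fpr2, by which neutrophils sense bacterial peptides, were lower at -3.07 ± 0.55 and -1.69 ± 0.39 (adjusted p = 0.00234 and 0.00971). The other neutrophil members called higher were Lcn2 and Cxcr2. The other neutrophil members called lower were S100a8 and Ngp. Called higher among neutrophil genes were 2 without SF-3-030+HDM 2 or SF-3-030+HDM 3. The neutrophil count called lower became 1 without SF-3-030+HDM 1 or SF-3-030+HDM 2. With 1 library left out, Fpr2 lost its call without SF-3-030+HDM 1 or SF-3-030+HDM 2 (adjusted p = 0.0505 to 0.0514).

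Every tested B cell gene was higher, 16 of 16, with a median of 2.07, and all 16 were also called higher in each of the 21 alternative settings tried, those that leave out 1 library included. Cd72 (ENSMUSG00000028459, chromosome 4, 43446462 to 43454628), an inhibitory co-receptor of B cells, had 13.5, 14.1, 13.9 and 14.6 CPM in PBS and 86.1, 66.4 and 59.03 CPM in SF-3-030+HDM (2.35 ± 0.17, adjusted p = 6.29e-06). Pax5 (ENSMUSG00000014030, chromosome 4, 44524757 to 44710487), the transcription factor that fixes B cell identity, had 16.6, 18.8, 10.2 and 11.5 CPM and 91.96, 65.98 and 60.2 CPM (2.38 ± 0.23, adjusted p = 4.4e-05). The groups were far apart at both genes, and HDM libraries had 41.1, 46.7 and 39.2 and 25.01, 26.2 and 20.1 CPM. Cd22 and Cd37, further surface proteins of B cells, rose by 2.45 ± 0.19 and 2.02 ± 0.20 (adjusted p = 1.15e-05 and 4.41e-05). In HDM against PBS 8 of the 16 were higher, and in SF-3-030+HDM against HDM 10 were.

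Plasma cell and immunoglobulin genes were higher for 13 and lower for 1 of 20 tested (median 2.29), against 11.8% and 18.1% of all genes. Ighe (ENSMUSG00000087642, chromosome 12, 113269260 to 113273248), the IgE heavy chain that arms mast cells, had 0.815, 1.16, 0.243 and 0.461 CPM in PBS, 14.2, 47.2 and 70.3 CPM in HDM and 326, 214 and 173 CPM in SF-3-030+HDM (8.49 ± 0.65, adjusted p = 9.08e-06 against PBS). The 3 groups did not overlap, and the test against HDM gave 2.39 ± 0.55 (adjusted p = 0.0246). Ighg1 (ENSMUSG00000076614, chromosome 12, 113325240 to 113330523), the IgG1 heavy chain, had 41.1, 274, 70.4 and 45.3 CPM in PBS, 11749.7, 17836 and 13098 CPM in HDM and 13680, 20236 and 9117 CPM in SF-3-030+HDM (7.03 ± 0.73, adjusted p = 6.77e-05 against PBS). HDM and SF-3-030+HDM overlapped at Ighg1, with a difference of -0.045 ± 0.64 (adjusted p = 0.975). Pou2af1, a B cell coactivator, and Irf4, which drives plasma cell formation, rose by 2.98 ± 0.26 and 2.55 ± 0.29 (adjusted p = 2e-05 and 0.000132). Among variable segments, which share sequence so that reads may be assigned to a neighbour, 55 of 102 heavy chain and 48 of 99 kappa chain segments tested were higher, and 2 and 0 were lower. The plasma cell and immunoglobulin member called lower was Sdc1.

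T cell genes were higher for 18 and lower for 0 of 24 tested (median 1.08). Il2ra, the high-affinity IL-2 receptor chain, had 1.83, 2.31, 1.76 and 3.34 CPM in PBS and 8.61, 9.64 and 8.45 CPM in SF-3-030+HDM (1.96 ± 0.26, adjusted p = 0.000332), and Icos, a costimulator of helper T cells, 4.23, 4.82, 2.45 and 3.07 CPM and 12.3, 16.7 and 9.08 CPM (1.82 ± 0.24, adjusted p = 0.000383). Cd27, a TNF receptor family costimulator, rose by 1.37 ± 0.19 and Cxcr6, a chemokine receptor of tissue T cells, by 1.18 ± 0.17 (adjusted p = 0.000429 and 0.000672). NK and cytotoxic cell genes were higher for 3 and lower for 2 of 18, near the 11.8% higher and 18.1% lower over all genes tested. Eomes, a transcription factor of NK and cytotoxic T cells, rose by 2.02 ± 0.27 (adjusted p = 0.000332). Klra8, a Ly49 receptor that inbred strains carry in different copies, went from 2.15, 1.59, 1.61 and 1.68 CPM to 0.0672, 0 and 0.00241 CPM (-6.08 ± 0.76, adjusted p = 0.000238), with 1.67, 0.966 and 1.19 CPM in HDM, and of 9 Klra genes tested 1 was higher and 4 lower. Klrb1c, the NK1.1 antigen gene, which also varies between inbred strains, had 5.37, 6.02, 4.24 and 7.29 CPM and 2.2, 2.59 and 2.56 CPM (-1.19 ± 0.27, adjusted p = 0.00839). Thymocyte genes, counted because the thymus lies beside the lungs, were higher for 2 and lower for 1 of 10, against the same shares over all genes. The other NK and cytotoxic cell members called higher were Ncr1 and Gzma. The thymocyte members called higher were Satb1 and Aqp11. The thymocyte member called lower was Arpp21.

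Genes of goblet cells and mucus were higher for 12 and lower for 0 of 26 tested (median 1.02), against 11.8% and 18.1% of all genes. Itln1 (ENSMUSG00000038209, chromosome 1, 171518122 to 171535294), an intelectin that binds microbial sugars, had 0.726, 1.13, 0.169 and 0.881 CPM in PBS, 9.54, 3.72 and 6.02 CPM in HDM and 166, 104 and 171 CPM in SF-3-030+HDM (7.70 ± 0.53, adjusted p = 4.71e-06 against PBS). The 3 groups did not overlap, and the test against HDM gave 4.53 ± 0.51 (adjusted p = 0.000319). Slc26a4, the anion exchanger pendrin, had 8.24, 31.04, 8.28 and 16.8 CPM and 343, 426 and 538 CPM (4.78 ± 0.69, adjusted p = 0.000615), and Pigr, which carries IgA across epithelium, 46.1, 156, 88.4 and 113 CPM and 881, 889 and 1195 CPM (3.30 ± 0.37, adjusted p = 0.000126). Tff1, a trefoil peptide secreted with mucus, had 0, 0.132, 0.0698 and 0.0531 CPM and 11.1, 3.99 and 11.7 CPM (7.04 ± 0.82, adjusted p = 0.000155). Among the mucins, Muc5ac, the inducible mucin of goblet cells, had 2.58, 21.8, 10.9 and 12.2 CPM and 80.5, 27.3 and 75.5 CPM (2.36 ± 0.58, adjusted p = 0.0125), while Muc5b, the constitutive airway mucin, had 82.1, 185, 176 and 180 CPM and 298, 121 and 178 CPM and did not pass (0.35 ± 0.34, adjusted p = 0.463). Clca1, a secreted modulator of chloride channels in goblet cells, had 52.2, 855, 219.6 and 512 CPM and 3713, 886 and 2558 CPM (2.53 ± 0.72, adjusted p = 0.0235). With 1 library left out, the call was lost for Clca1 without SF-3-030+HDM 1 or SF-3-030+HDM 3 (adjusted p = 0.0644 to 0.0856). Under other settings, the call was lost for Clca1 without the 3 high-background libraries.

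Club cells, the secretory cells of the small airways, showed the opposite direction. Of 17 club and secretory genes tested 9 were lower and 1 was higher (median -1.10), and of 23 cytochrome P450 and detoxification genes 11 were lower and 1 was higher (median -1.08), against 18.1% lower over all genes. Scgb3a2 (ENSMUSG00000038791, chromosome 18, 43764289 to 43767399), a secretoglobin of club cells, had 1272, 1328, 709 and 849.9 CPM in PBS, 356, 368 and 322 CPM in HDM and 67.1, 43.7 and 43.5 CPM in SF-3-030+HDM (-4.31 ± 0.27, adjusted p = 2.81e-06 against PBS). The 3 groups did not overlap, and the test against HDM gave -2.80 ± 0.26 (adjusted p = 7.99e-05). Cyp2f2, the cytochrome that metabolises naphthalene in club cells, had 3007, 4619, 3543 and 3819 CPM and 932, 651 and 756 CPM (-2.25 ± 0.28, adjusted p = 0.000258). Por, the reductase that serves the cytochromes, was lower at -1.70 ± 0.22, Cyp4b1 at -1.77 ± 0.22 and the epoxide hydrolase gene Ephx1 at -1.49 ± 0.18 (adjusted p = 0.000294, 0.000227 and 0.00021). Cyp7b1, an oxysterol hydroxylase, was the detoxification member that rose, from 3.45, 3.55, 3.19 and 3.13 CPM to 13.6, 15.1 and 16.3 CPM (2.21 ± 0.22, adjusted p = 5.04e-05). Scgb1a1, the most used club cell marker, had 21033, 38496, 33519 and 30248 CPM and 22242, 17379 and 16976 CPM and did not pass (-0.70 ± 0.25, adjusted p = 0.0533). The club and secretory member called higher was Krt15.

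Alveolar type 1 genes, of the thin cells across which gas passes, were lower for 8 and higher for 0 of 15 tested (median -0.73). Aqp5 (ENSMUSG00000044217, chromosome 15, 99590782 to 99594829), a water channel, had 571, 429, 432 and 502 CPM in PBS, 242, 343 and 398 CPM in HDM and 152, 164 and 137 CPM in SF-3-030+HDM (-1.64 ± 0.19, adjusted p = 0.000152 against PBS). The 3 groups did not overlap at Aqp5, and the test against HDM gave -1.15 ± 0.20 (adjusted p = 0.00545). Ager, the receptor RAGE, was lower at -1.02 ± 0.20 and Hopx, a homeodomain cofactor, at -0.94 ± 0.19 (adjusted p = 0.00381 and 0.00483). Alveolar type 2 genes, of the surfactant-making cells, were lower for 4 and higher for 2 of 17, shares near the 11.8% higher and 18.1% lower over all genes tested. Sftpb, surfactant protein B, had 4526, 4317, 4507 and 5045 CPM and 2006, 2227 and 2338 CPM (-1.04 ± 0.17, adjusted p = 0.00137), against 4131, 4719 and 4650.5 CPM in HDM, and Sftpc, surfactant protein C, was lower at -0.66 ± 0.21 (adjusted p = 0.0347). Lipid synthesis genes, which type 2 cells use for surfactant, were lower for 6 and higher for 0 of 22, with Elovl1, a fatty acid elongase, from 612, 471, 488 and 445 CPM to 196, 189.6 and 219 CPM (-1.27 ± 0.16, adjusted p = 0.000218). Ciliated cell genes were lower for 8 and higher for 0 of 22, among them Foxj1, the factor that specifies motile cilia, from 241, 143, 156 and 139 CPM to 89.5, 66.98 and 64.5 CPM (-1.16 ± 0.19, adjusted p = 0.00148). The alveolar type 2 members called higher were Il33 and Cd74. The other alveolar type 2 members called lower were Lpcat1 and Napsa. The number of alveolar type 1 genes called lower was 4 without SF-3-030+HDM 1, SF-3-030+HDM 2 or SF-3-030+HDM 3 and 5 without PBS 2. Called lower among alveolar type 2 genes were 1 without SF-3-030+HDM 1 and 2 without SF-3-030+HDM 2. The cholesterol and lipid synthesis count called lower became 2 without SF-3-030+HDM 1 and 3 without SF-3-030+HDM 2. The number of ciliated genes called lower was 1 without SF-3-030+HDM 2, 2 without SF-3-030+HDM 3, 5 without PBS 3, HDM 1 or HDM 2 and 14 under upper-quartile scaling. Leaving out single libraries ended the call for Sftpc without PBS 1, PBS 4, SF-3-030+HDM 1 or SF-3-030+HDM 2 (adjusted p = 0.0709 to 0.144). Another setting ended the call for Sftpc with no filter, with the 7 libraries fitted alone and without the 3 high-background libraries.

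**Figure D3:**
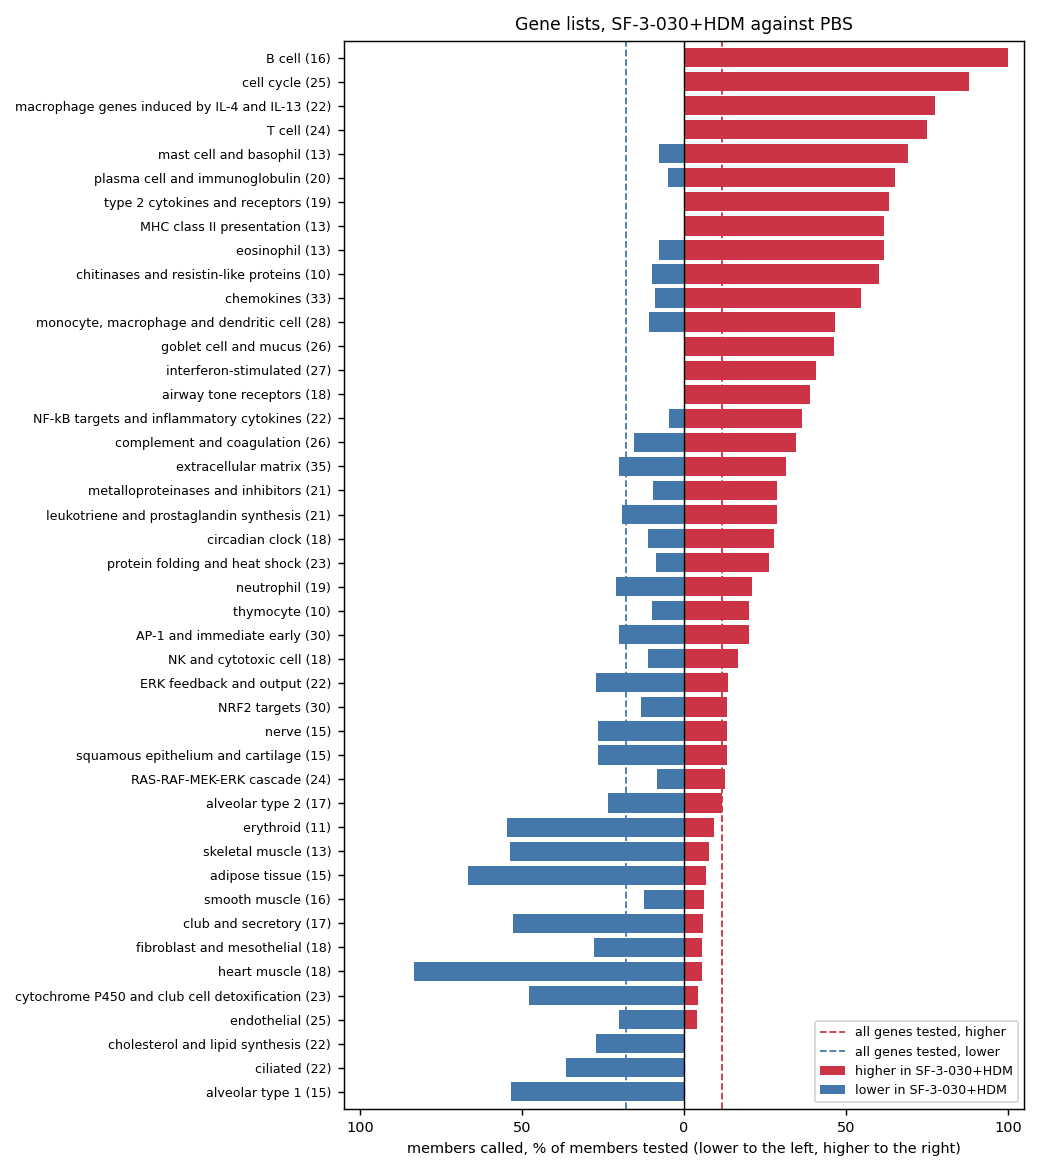
Share of the tested members of each of 44 gene lists called higher (right) or lower (left) in SF-3-030+HDM against PBS, in percent, with the number tested in brackets and dashed lines at the shares over all genes tested. B cell, cell cycle and macrophage lists reach furthest to the right, and heart muscle, adipose and alveolar type 1 lists lie to the left.

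The AP-1 and ERK genes bear on the pathway that SF-3-030 is described to act on. Of 30 AP-1 and immediate early genes tested, 6 were higher and 6 lower (median -0.47), against 11.8% higher and 18.1% lower over all genes tested, so the share called lower was near that of all genes. The comparison of HDM with PBS called 2 of them higher and 0 lower (median -0.28), against 2.32% and 0.294% of all genes. Fos (ENSMUSG00000021250, chromosome 12, 85473890 to 85477273) had 21.00, 299, 48.1 and 55.5 CPM in PBS, 44.02, 75.4 and 61.3 CPM in HDM and 45.2, 56.8 and 29.2 CPM in SF-3-030+HDM and did not pass (-1.31 ± 0.73, adjusted p = 0.194 against PBS). PBS replicate 2 stood above the other libraries at Fos. Without the 3 high-background libraries, a fit that keeps only PBS replicates 2 and 3 of the PBS group, Fos was called lower (-2.04). Egr1, another immediate early gene, had 14.8, 401, 61.8 and 62.5 CPM in PBS and 31.4, 43.1 and 29.04 CPM in SF-3-030+HDM (-1.999 ± 0.90, adjusted p = 0.112). Jun had 258, 435, 371 and 370.4 CPM and 254, 283 and 232 CPM (-0.47 ± 0.21, adjusted p = 0.105), and Fosl1 had 1.45, 1.78, 2.73 and 2.11 CPM and 1.58, 2.47 and 1.38 CPM (-0.15 ± 0.32, adjusted p = 0.741). Neither passed the test. Myc, a growth regulator, rose from 11.7, 9.1, 8.33 and 8.5 CPM to 21.8, 23.3 and 20.8 CPM (1.27 ± 0.21, adjusted p = 0.00166) and Batf3, a partner of Jun in dendritic cells, by 2.58 ± 0.40 (adjusted p = 0.00101), while Maff, a small Maf factor, was lower at -1.07 ± 0.21 (adjusted p = 0.00407). Called lower among AP-1 and immediate early genes were 1 without SF-3-030+HDM 1 or SF-3-030+HDM 2, 2 without HDM 2 or SF-3-030+HDM 3, 3 without HDM 1 and without the 3 Y-linked libraries, 10 under upper-quartile scaling and 12 without PBS 1 and without the 3 high-background libraries.

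ERK feedback and output genes, which rise when ERK is active, were higher for 3 and lower for 6 of 22 tested (median -0.31), against the same shares over all genes. Dusp6, the phosphatase that removes phosphate from ERK, had 66.1, 114, 67.6 and 71.4 CPM in PBS and 80.2, 103 and 80.7 CPM in SF-3-030+HDM and did not pass (0.16 ± 0.23, adjusted p = 0.626). Dusp2 and Dusp10, phosphatases of MAP kinases, rose by 1.56 ± 0.21 and 0.79 ± 0.19 (adjusted p = 0.00044 and 0.0124), and Spry4, a Sprouty inhibitor of receptor signalling, by 0.76 ± 0.23 (adjusted p = 0.0291). Dusp7, a further ERK phosphatase, was lower at -0.93 ± 0.21 and Fgfbp1, a carrier of fibroblast growth factors, at -1.34 ± 0.35 (adjusted p = 0.00943 and 0.0158). In the cascade itself 3 genes were higher and 2 lower of 24, of which the higher share was near that of all genes. Grb2, the adaptor that links receptors to RAS, rose by 0.78 ± 0.16 and Nras by 1.01 ± 0.22 (adjusted p = 0.00568 and 0.00798). Mapk3, which encodes ERK1, differed by -0.29 ± 0.17 and did not pass (adjusted p = 0.209). These are RNA levels, and the phosphorylation on which ERK activity rests was not measured in these files. The other RAS-RAF-MEK-ERK cascade member called higher was Elk4. The RAS-RAF-MEK-ERK cascade members called lower were Rps6ka2 and Ksr1. The ERK feedback and output count called lower became 2 without SF-3-030+HDM 1 or SF-3-030+HDM 2, 3 without SF-3-030+HDM 3 and 10 under upper-quartile scaling and without the 3 high-background libraries. Fits on 9 libraries did not call Dusp10 without SF-3-030+HDM 1 (adjusted p = 0.0573), Spry4 without PBS 4, SF-3-030+HDM 1, SF-3-030+HDM 2 or SF-3-030+HDM 3 (adjusted p = 0.0654 to 0.106) and Fgfbp1 without SF-3-030+HDM 2 or SF-3-030+HDM 3 (adjusted p = 0.0592 to 0.0757). No call remained at another setting for Dusp10 without the 3 high-background libraries and Spry4 without the 3 high-background libraries.

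**Figure D4:**
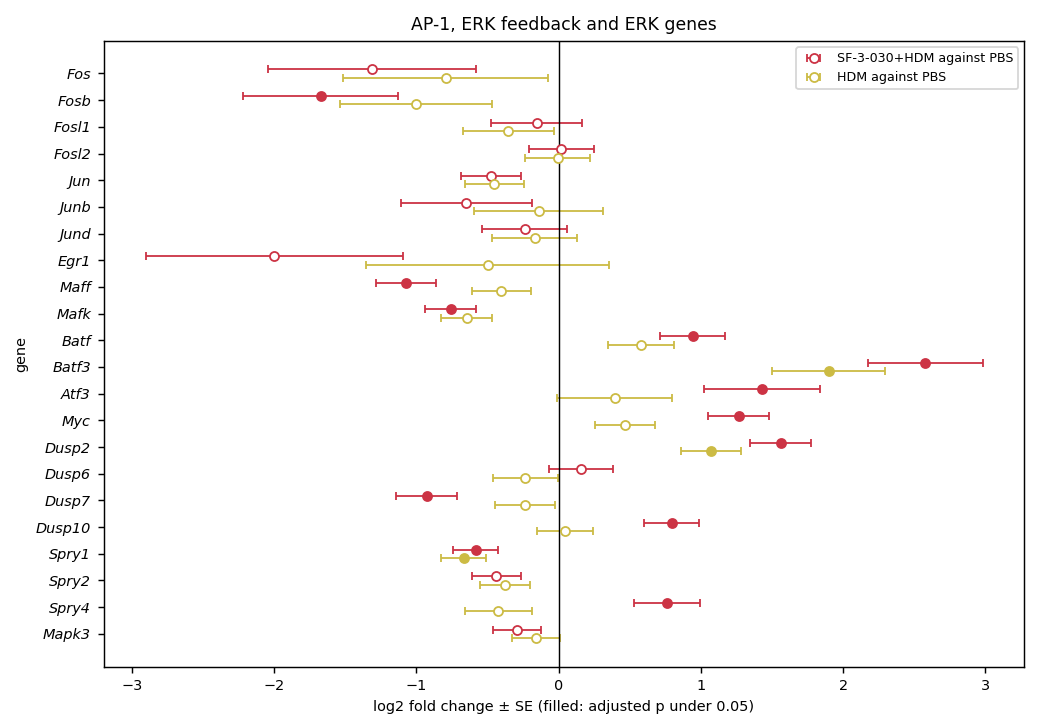
Log2 fold change against PBS, with its standard error, of 22 AP-1, ERK feedback and ERK genes chosen after their values were seen, for SF-3-030+HDM (red) and HDM (yellow), which share the PBS libraries. Filled points passed an adjusted p of 0.05, and Fos, Jun, Egr1, Dusp6 and Mapk3 are open in both comparisons.

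Metalloproteinases and their inhibitors were higher for 6 and lower for 2 of 21 tested, against 11.8% higher and 18.1% lower over all genes tested. Mmp12 (ENSMUSG00000049723, chromosome 9, 7344381 to 7369499), the elastase of macrophages, had 3.14, 10.4, 9.08 and 16.7 CPM in PBS, 262, 189 and 345 CPM in HDM and 790.3, 852 and 939.9 CPM in SF-3-030+HDM (6.46 ± 0.50, adjusted p = 1.03e-05 against PBS). Mmp13 (ENSMUSG00000050578, chromosome 9, 7272514 to 7283331), a collagenase, had 0.113, 0.212, 0.415 and 0.855 CPM, 4.68, 2.38 and 6.38 CPM and 18.1, 13.3 and 18.8 CPM in the same order (5.37 ± 0.55, adjusted p = 6.02e-05 against PBS). The 3 groups did not overlap at either gene, and the tests against HDM gave 1.70 ± 0.46 and 1.91 ± 0.51 (adjusted p = 0.0427 and 0.041). Adam8, a sheddase of leukocytes, rose by 2.18 ± 0.23, and Mmp3, stromelysin, was lower at -1.54 ± 0.26 (adjusted p = 6.77e-05 and 0.00168). The other metalloproteinase and inhibitor member called lower was Mmp15.

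Promoter windows of Mmp12 and Mmp13 are shown because both rose and both have an annotated start whose window holds the AP-1 letters TGANTCA, marked in capitals and searched on both strands, in RefSeq windows on build GRCm38.p6, plus strand, at chr9:7347124-7347423 and chr9:7272264-7272563.
Mmp12 promoter: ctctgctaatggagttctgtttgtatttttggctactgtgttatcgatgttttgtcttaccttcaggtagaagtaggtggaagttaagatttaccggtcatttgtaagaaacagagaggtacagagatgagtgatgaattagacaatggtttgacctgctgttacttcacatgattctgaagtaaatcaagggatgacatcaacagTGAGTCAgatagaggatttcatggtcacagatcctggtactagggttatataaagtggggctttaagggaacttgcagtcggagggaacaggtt
Mmp13 promoter: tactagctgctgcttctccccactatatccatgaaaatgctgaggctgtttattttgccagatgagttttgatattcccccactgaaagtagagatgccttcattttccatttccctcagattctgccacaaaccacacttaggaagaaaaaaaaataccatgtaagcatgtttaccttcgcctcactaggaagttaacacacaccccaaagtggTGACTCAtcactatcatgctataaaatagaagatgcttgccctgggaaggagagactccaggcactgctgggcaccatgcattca
The window of Mmp12 belongs to the second of 2 annotated starts, and the window of the first start does not hold these letters. The motif began 44 bases before the second start, while in Mmp13 it began 35 bases before the start. Of 17 list members matched, 5 held the motif at any annotated start, among them Mmp3, which fell. None of the 23 matched AP-1 and immediate early genes did. Over all promoters the share was 7.81%, counted per start and not per gene, so it is not a like measure.

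Extracellular matrix genes were higher for 11 and lower for 7 of 35 tested. Over all genes tested, 11.8% were higher and 18.1% lower, so the matrix share called lower was near that of all genes. Col3a1, a fibrillar collagen, had 304, 478, 301 and 255 CPM in PBS and 772, 867 and 1078 CPM in SF-3-030+HDM (1.47 ± 0.26, adjusted p = 0.00226), and Col15a1, a basement membrane collagen, rose by 1.27 ± 0.19 (adjusted p = 0.000876). Col12a1, a fibril-associated collagen, was lower at -2.01 ± 0.25 and Fbln1, fibulin 1, at -1.38 ± 0.20 (adjusted p = 0.000203 and 0.000727). Col1a1 had 318, 422, 323 and 261 CPM and 423, 429 and 547 CPM and did not pass (0.53 ± 0.29, adjusted p = 0.182). Smooth muscle genes were higher for 1 and lower for 2 of 16, both below the shares over all genes. Acta2, smooth muscle actin, did not pass (0.37 ± 0.38, adjusted p = 0.491). Receptors of airway tone were higher for 7 and lower for 0 of 18. Ptgir and Ptger4, the prostacyclin receptor and a prostaglandin E2 receptor, rose by 1.61 ± 0.24 and 1.66 ± 0.25 (adjusted p = 0.000708 and 0.000752). Bdkrb2, the bradykinin B2 receptor, had 19.3, 16.8, 15.4 and 12.8 CPM in PBS, 8.04, 6.37 and 8.36 CPM in HDM and 22.6, 28.5 and 25.4 CPM in SF-3-030+HDM, and rose against PBS (0.70 ± 0.16, adjusted p = 0.00922), whereas HDM fell against PBS (-1.03 ± 0.17, adjusted p = 0.00737) and the direct test gave 1.74 ± 0.18 (adjusted p = 0.00016). The smooth muscle member called higher was Synpo2. The smooth muscle members called lower included Smtn. The number of extracellular matrix genes called higher was 6 without SF-3-030+HDM 2 or SF-3-030+HDM 3. Called lower among extracellular matrix genes were 4 without SF-3-030+HDM 1 or SF-3-030+HDM 2. The airway tone receptor count called higher became 4 without SF-3-030+HDM 2 and under upper-quartile scaling. Under other settings, the call was lost for Bdkrb2 with upper-quartile scaling.

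Endothelial genes were lower for 5 and higher for 1 of 25 tested, and fibroblast and mesothelial genes lower for 5 and higher for 1 of 18, against 11.8% higher and 18.1% lower over all genes tested. The share of endothelial genes called lower was near that of all genes, which includes the genes under 1 CPM. Nos3, endothelial nitric oxide synthase, had 42.7, 22.1, 35.7 and 33.6 CPM and 15.00, 18.5 and 12.6 CPM (-1.09 ± 0.20, adjusted p = 0.00317), and Eng, endoglin, was lower at -0.88 ± 0.14 (adjusted p = 0.00138). Ackr1, a chemokine-binding receptor of venules, rose by 2.63 ± 0.57 (adjusted p = 0.00704). Inmt, a methyltransferase abundant in lung fibroblasts, had 3233, 2185, 2307 and 2504 CPM and 1123, 1013 and 1122 CPM (-1.19 ± 0.27, adjusted p = 0.00961), and Mfap4, an elastic fibre protein, rose by 0.91 ± 0.19 (adjusted p = 0.00602). The other endothelial members called lower were Cdh5, Ace and Apln. The other fibroblast and mesothelial members called lower were Scara5, Upk3b, Pdgfrb and Col13a1. The number of endothelial genes called lower was 2 without SF-3-030+HDM 1, 3 without HDM 2, SF-3-030+HDM 2 or SF-3-030+HDM 3 and without the 3 Y-linked libraries, 8 without the 3 high-background libraries, 9 without PBS 1 and 11 under upper-quartile scaling. Called lower among fibroblast and mesothelial genes were 2 without SF-3-030+HDM 2, 3 without SF-3-030+HDM 1, 8 without PBS 1 and without the 3 high-background libraries and 9 under upper-quartile scaling.

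Cell cycle genes were higher for 22 and lower for 0 of 25 tested (median 1.65), and in HDM against PBS 16 were higher. Of all genes, 11.8% were higher against PBS in SF-3-030+HDM and 2.32% in HDM. Top2a (ENSMUSG00000020914, chromosome 11, 98992943 to 99024189), the topoisomerase of dividing cells, had 9.93, 16.96, 9.07 and 12.96 CPM in PBS, 31.7, 36.9 and 40.97 CPM in HDM and 60.5, 54.7 and 57.3 CPM in SF-3-030+HDM (2.25 ± 0.23, adjusted p = 6.85e-05 against PBS). Mki67, the Ki-67 proliferation antigen, had 8.72, 15.1, 11.3 and 10.3 CPM in PBS and 98.6, 84.4 and 52.2 CPM in SF-3-030+HDM (2.78 ± 0.30, adjusted p = 8.83e-05), and Rrm2, which makes deoxynucleotides, rose by 2.40 ± 0.25 (adjusted p = 7.77e-05). All 3 SF-3-030+HDM libraries exceeded all 4 PBS libraries at these genes.

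Interferon-stimulated genes were higher for 11 and lower for 0 of 27 tested, and genes of NF-kB and inflammatory cytokines higher for 8 and lower for 1 of 22. Over all genes tested, 11.8% were higher and 18.1% lower. Ifi44l had 0, 0, 0.0339 and 0.0399 CPM in PBS, 0.0461, 0 and 0.0404 CPM in HDM and 3.25, 2.24 and 3.44 CPM in SF-3-030+HDM (7.12 ± 0.77, adjusted p = 9.03e-05 against PBS), a separation of SF-3-030+HDM from both other groups like that of Gbp2b. Mx1, an antiviral GTPase, rose by 1.96 ± 0.32 (adjusted p = 0.00137). Saa3, an acute phase protein, had 5.22, 8.38, 7.41 and 5.42 CPM and 185, 374 and 356 CPM (5.55 ± 0.83, adjusted p = 0.000799), Il1a, an alarm cytokine, 3.28, 2.37, 2.1 and 1.51 CPM and 13.9, 13.4 and 9.58 CPM (2.44 ± 0.26, adjusted p = 7.35e-05), and Il1rn, its receptor antagonist, rose by 2.84 ± 0.32 (adjusted p = 0.00012). Complement and coagulation genes were higher for 9 and lower for 4 of 26, with C3, the central complement protein, from 808, 1309, 1218 and 1029.9 CPM to 3683, 3140.1 and 4089 CPM (1.76 ± 0.25, adjusted p = 0.000543). Leukotriene and prostaglandin synthesis genes were higher for 6 and lower for 4 of 21. The shares of complement and leukotriene genes called lower were near that of all genes. Alox15, a lipoxygenase induced by IL-4 and IL-13, had 4.74, 2.26, 5.28 and 4.6 CPM and 70.6, 58.4 and 86.5 CPM (4.14 ± 0.65, adjusted p = 0.00103), and Hpgd, which inactivates prostaglandins, fell from 358, 354, 376 and 392 CPM to 114, 112 and 112 CPM (-1.69 ± 0.23, adjusted p = 0.000381). The NF-kB and inflammatory cytokine member called lower was Il18. The complement and coagulation members called lower were Serping1, F13a1, Plat and Proc. The other leukotriene and prostaglandin synthesis members called lower were Alox12, Ptges2 and Ptgis. The interferon-stimulated count called higher became 5 without SF-3-030+HDM 3, 6 under upper-quartile scaling and 7 without PBS 4, SF-3-030+HDM 1 or SF-3-030+HDM 2 and without the 3 high-background libraries. The number of NF-kB and inflammatory cytokine genes called higher was 5 without SF-3-030+HDM 2 or SF-3-030+HDM 3. Called lower among complement and coagulation genes were 2 without PBS 3, SF-3-030+HDM 1 or SF-3-030+HDM 2 and 7 under upper-quartile scaling.

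NRF2 targets, which answer oxidants and electrophiles, were higher for 4 and lower for 4 of 30 tested, against 11.8% higher and 18.1% lower over all genes tested. Gsta3, a glutathione transferase, had 188, 272, 175 and 169.6 CPM and 61.2, 46.2 and 54.2 CPM (-1.88 ± 0.28, adjusted p = 0.000807), Nqo1, a quinone reductase, was lower at -2.08 ± 0.53 and Hmox1, heme oxygenase, rose by 0.74 ± 0.25 (adjusted p = 0.0152 and 0.0461). Protein folding and heat shock genes were higher for 6 and lower for 2 of 23, with Hsp90b1, a chaperone of the endoplasmic reticulum, from 435, 637, 497 and 659 CPM to 1302, 1355 and 1117 CPM (1.19 ± 0.21, adjusted p = 0.00227). Circadian clock genes were higher for 5 and lower for 2 of 18, and the share called lower was below that of all genes. Nr1d1, a repressor in the clock, went from 451, 281, 424 and 363 CPM to 114, 112 and 77.3 CPM (-1.89 ± 0.22, adjusted p = 0.00017), and Arntl, its target, was lower at -1.05 ± 0.23 (adjusted p = 0.00757). The labels used here give no hour of sampling. The other NRF2 target members called higher were Slc7a11, Me1 and Ftl1. The other NRF2 target members called lower were Gstm1 and Osgin1. The protein folding and heat shock members called lower were Hspb1 and Bag3. The circadian clock members called higher were Bhlhe41, Bhlhe40, Per3, Cry1 and Nfil3. The NRF2 target count called higher became 1 without PBS 4 or SF-3-030+HDM 3 and without the 3 high-background libraries and 2 under upper-quartile scaling. The number of NRF2 target genes called lower was 7 without the 3 high-background libraries and 9 under upper-quartile scaling. Called higher among circadian clock genes were 3 without SF-3-030+HDM 2. Calls lost when 1 library was left out were those of Nqo1 without SF-3-030+HDM 1, SF-3-030+HDM 2 or SF-3-030+HDM 3 (adjusted p = 0.05 to 0.0676) and Hmox1 without PBS 1, PBS 4, HDM 1, HDM 2, HDM 3, SF-3-030+HDM 1, SF-3-030+HDM 2 or SF-3-030+HDM 3 (adjusted p = 0.0548 to 0.188). Another setting ended the call for Hmox1 with upper-quartile scaling, in limma-voom, with the 7 libraries fitted alone and without the 3 high-background libraries.

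Markers of some tissues beside the lung also moved with the groups. Over all genes tested, 11.8% were higher and 18.1% lower. The shares of the squamous and nerve lists lay nearer to these than those of the other lists below. Heart muscle genes were lower for 15 and higher for 1 of 18 tested, and summed to 544 to 1178 CPM in PBS, 455 to 676 CPM in HDM and 258 to 389 CPM in SF-3-030+HDM. Myl7, the atrial myosin light chain, had 50.4, 57.1, 80.1 and 59.7 CPM and 12.9, 5.77 and 10.6 CPM (-2.65 ± 0.30, adjusted p = 0.000137), and Tnni3, cardiac troponin I, was lower at -2.50 ± 0.24 (adjusted p = 4.4e-05). Adipose genes were lower for 10 and higher for 1 of 15, with sums of 289.8 to 435, 264 to 413 and 226 to 253 CPM in the same order, and Cidec, a lipid droplet protein, was lower at -4.11 ± 0.52 (adjusted p = 0.000272). Skeletal muscle genes were lower for 7 and higher for 1 of 13, with sums of 72.6 to 96.1, 39.05 to 51.4 and 11.9 to 23.2 CPM, and Mb, myoglobin, was lower at -4.12 ± 0.51 (adjusted p = 0.00021). Erythroid genes were lower for 6 and higher for 1 of 11, among them Alas2, the first enzyme of heme synthesis in red cells (-1.71 ± 0.36, adjusted p = 0.00588). Squamous epithelium and cartilage genes were lower for 4 and higher for 2 of 15, and Krt5, the basal cell keratin, had 0.209, 0.176, 0.283 and 0.323 CPM and 6.51, 2.81 and 3.96 CPM (4.15 ± 0.36, adjusted p = 1.95e-05). Nerve genes were lower for 4 and higher for 2 of 15, and Npy, neuropeptide Y, had 0.0843, 0.0705, 0.0677 and 0.152 CPM in PBS, 3.84, 5.68 and 11.95 CPM in HDM and 7.18, 12.1 and 11.96 CPM in SF-3-030+HDM (6.80 ± 0.49, adjusted p = 5.56e-06 against PBS). The part of tissue carried along at dissection in the results above was not tested. The heart muscle member called higher was Myh7. The adipose tissue member called higher was Cidea. The skeletal muscle member called higher was Pvalb. The other squamous epithelium and cartilage member called higher was Lor. The squamous epithelium and cartilage members called lower were Spink5, Krt13, Krtdap and Dsg1a. The other nerve member called higher was Calca. The nerve members called lower included Uchl1, Gal and Chat. The adipose tissue count called lower became 6 without SF-3-030+HDM 2. The number of erythroid genes called lower was 3 without SF-3-030+HDM 2 and without the 3 high-background libraries. Called lower among squamous epithelium and cartilage genes were 2 without SF-3-030+HDM 1, SF-3-030+HDM 2 or SF-3-030+HDM 3 and without the 3 high-background libraries. The nerve count called lower became 1 without SF-3-030+HDM 1 or SF-3-030+HDM 3 and without the 3 high-background libraries and 2 without SF-3-030+HDM 2. Without the 3 high-background libraries the squamous and cartilage median moved from -0.55 to 0.31, with 10 members tested. The nerve median moved from -0.34 to -0.04 in the same fit, with 14 members tested.

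**Figure D5:**
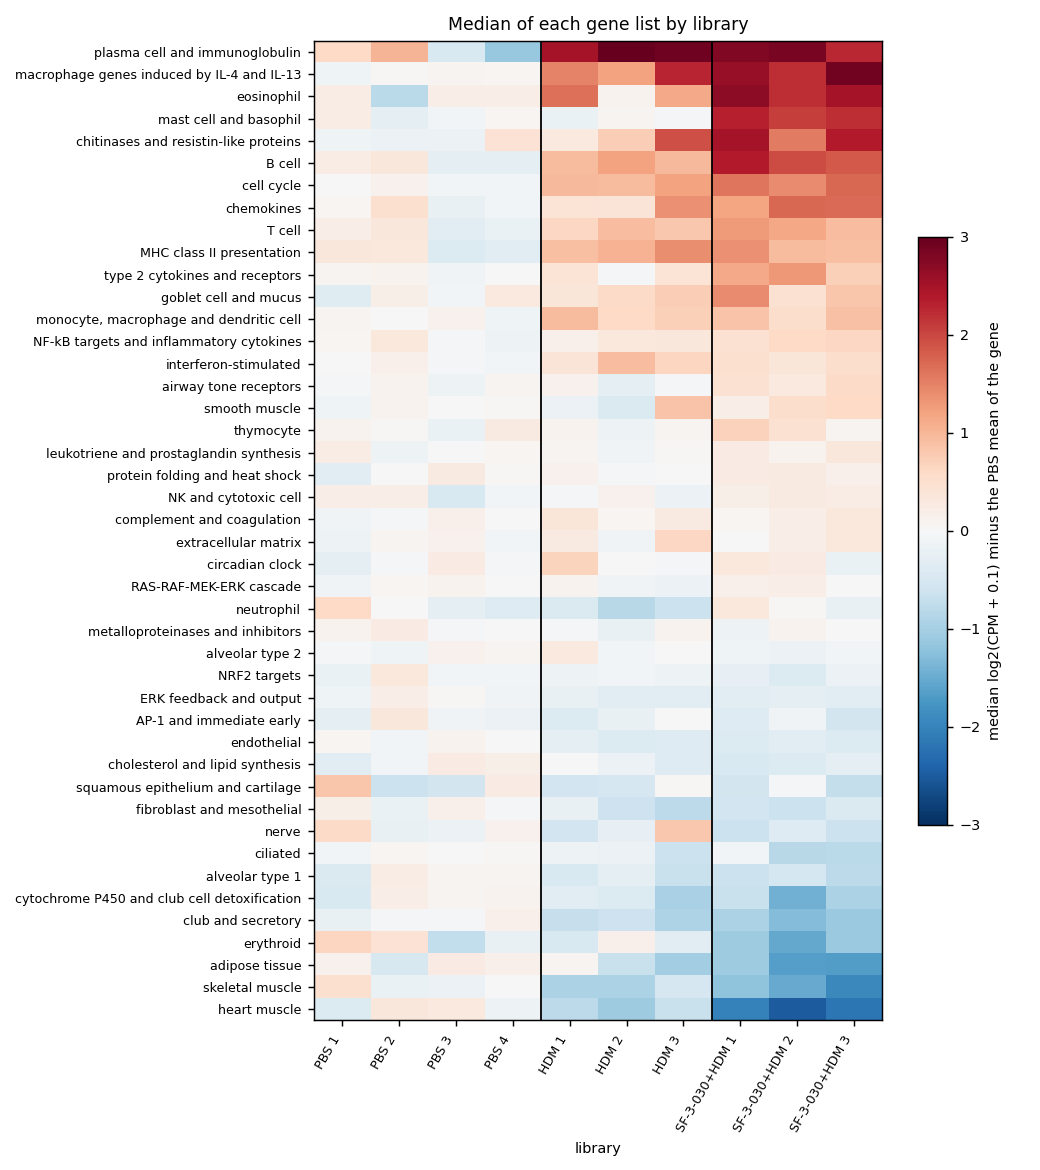
Median over list members of log2(CPM + 0.1) minus the PBS mean of each gene, for 44 lists (rows) and 10 libraries (columns), red above and blue below the PBS mean. The 3 SF-3-030+HDM columns resemble each other, and heart muscle, skeletal muscle and adipose rows are blue in all 3.

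Upper-quartile scaling reversed the sign of the median of 6 lists with medians near 0, the NK and cytotoxic, RAS-RAF-MEK-ERK, extracellular matrix, circadian clock, complement and coagulation, and leukotriene and prostaglandin lists, so no direction is given for these as groups.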

How the data were processed

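Whole-lung RNA-seq libraries were grouped as PBS (4), HDM (3) and SF-3-030+HDM (3) from the sample labels. Reads were trimmed with Trimmomatic 0.36 and aligned with STAR 2.5.2b to GRCm38, per the submitters' processing notes; the sources used here name neither the counter nor its annotation or strand setting, so reads of overlapping or antisense genes cannot be told apart. The authors deposited 1 table of expected counts for 53342 genes, of which 34.4% of cells were blank and were read as 0. Between 86.9% and 90.6% of the values above 0 in a library were not whole, to within 0.001, and they were rounded for testing. Counts summed to 38667118 to 59083942 per library.

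Rounded counts were scaled by TMM and tested in R 4.3.3 with edgeR 4.0.16 (filterByExpr, quasi-likelihood test, Benjamini-Hochberg adjustment over 26235 genes, threshold 0.05) in 1 fit of all 10 libraries, with a contrast for each comparison. The deposited table also holds log2 values that the authors scaled per library and centred on each gene's median, per the file headers and the values, and these were not used. Values in CPM are counts per 1000000 of the library's summed count, without TMM factors, and are not scaled by gene length, so levels are compared between libraries and not between genes. The standard error is the log2 fold change divided by the root of its F statistic. The test was checked on counts simulated from its own model with known changes. The simulation held no outlier library and no background difference between libraries, so the check does not cover these. GENCODE M21 gave gene positions.

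Members and lists were chosen with earlier results of these data known. Genes with values are the 12 largest called rises and 12 largest called falls whose libraries do not overlap, with a mean of at least 1 CPM in the higher group and without predicted genes, pseudogenes and variable segments, a panel of 38 genes, up to 4 members with the smallest p of each of 44 lists, and the genes of the label check. Falls of at least 10 CPM, rises of at least 100 CPM, and members named with a direction only were chosen after values were seen. Results for a few of these genes are not reported here. Of 913 list entries 907 were in the table. Alternatives were DESeq2 1.42.0, limma-voom (limma 3.58.1), scaling by RLE or by the upper quartile, other filters, a stricter threshold, the 7 libraries alone, a replicate block, and fits without single or doubtful libraries. Same-numbered libraries did not deviate together (correlations -0.63 to 0.19), so replicate numbers were not taken to pair libraries.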

Additional observations from a re-analysis of the deposited data

Results flagged for a closer look

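Groups of 4 libraries allow a check for a single library far from the rest, and among 160 genes described above 18 had such a PBS library, whose gap to its nearest neighbour exceeded Dixon's 95% critical share of the group's range. For independent values of a normal distribution about 1 in 20 would pass this limit. Many of these genes were chosen by values of these same libraries, so that rate does not apply to them. PBS 1 lay far above the other PBS libraries for Retnlg at 44.3 CPM, Klra8 at 2.15 CPM, Foxj1 at 241 CPM and Mapk3 at 589.7 CPM. PBS 1 lay far below the other PBS libraries for Muc5b at 82.1 CPM and Col12a1 at 27.8 CPM. PBS 2 lay far above the other PBS libraries for Ddx3y at 30.2 CPM, Ighg1 at 274 CPM, Fos at 299 CPM, Egr1 at 401 CPM, Dusp6 at 114 CPM and Nqo1 at 22.97 CPM. PBS 2 lay far below the other PBS libraries for Retn at 1.55 CPM, Spp1 at 63.8 CPM, Ear1 at 7.55 CPM and Por at 479.7 CPM. PBS 4 lay far above the other PBS libraries for Chia1 at 215 CPM and Arntl at 18.2 CPM. Fos, Egr1 and Dusp6 stood high together in PBS replicate 2, the library that also carries Ddx3y RNA, and the part of this library in those comparisons was not tested beyond the values without it. Groups of 3 libraries, SF-3-030+HDM among them, were not checked this way.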

How the results depend on the processing

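Without 1 library, 1880 to 3121 genes were called higher and 2013 to 5234 lower. An adjusted p of 0.01 left 1562 higher and 1310 lower. The count called lower was 2018 with limma-voom, 2806 among genes of at least 1 CPM in 3 libraries (fewer genes tested), 2962 with the 7 libraries fitted alone and 2636 without the 3 libraries with high background (fewer libraries), and 6483 with DESeq2; apart from the reduced genes or libraries, the cause was not tested. A replicate block gave 1503 higher and 1129 lower, although same-numbered libraries did not deviate together. The log2 fold change of Fos turned to 0.097 without the 3 Y-linked libraries and 0.070 without PBS replicate 2, with -1.67 to 0.070 over the fits without 1 library, that of Fosl1 to 0.067 without PBS replicate 3, with -0.40 to 0.067 over those fits, and that of Dusp6 to -0.021 with upper-quartile scaling and -0.085 without the high-background libraries. None of the 3 was called in the main test. Fos was called lower without the high-background libraries, at -2.04. The cause of these shifts was not tested. Of 160 genes with values, 147 were called, and 137 of these kept the call in all 10 fits without 1 library, 147 without the Y-linked libraries, 141 without the high-background libraries, 144 with DESeq2 (which gave no adjusted p for the other 3), 136 with limma-voom and 129 with the block. Over all alternatives, 292 list counts moved by over 1.5 times and 1556 did not. A gene that did not pass is not shown to be unchanged.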
